A study of Sus scrofa with 70 samples.

Results

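Gene expression in the vesicular gland was compared between 2 breeds of pig, the Banna mini-pig inbred line (BMI) and the Diannan small-ear pig (DSE) from which BMI was derived by inbreeding. The comparison rests on 6 RNA-seq libraries, 3 from BMI and 3 from DSE boars aged 12 months, among 30 RNA-seq libraries and 70 samples of all kinds that also cover the testis, the epididymis, the prostate and the bulbourethral gland. The labels give no treatment and no genotype beyond the breed, and do not say that the 3 libraries of a breed came from separate animals, so p-values measure the spread between these libraries. Because BMI is 1 inbred line, its libraries do not stand for unrelated pigs. The deposited abundance of transcripts, in transcripts per 1000000 (TPM), was summed to genes, and 12585 genes with at least 1 TPM in at least 3 of the 6 libraries were tested.

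The vesicular gland is an accessory gland that adds a protein-rich fluid to the ejaculate. In the boar its main products are spermadhesins, small secreted proteins that coat sperm, and their genes lie side by side on 1 chromosome. Gland epithelium with a heavy secretory load depends on the endoplasmic reticulum for folding and export, and it lies on a bed of basal cells, smooth muscle and connective tissue.

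Breed differences were found in a small share of genes. Of the 12585 genes, 34 (0.27%) were higher and 120 (0.954%) were lower in DSE by limma on log2(TPM + 1), where a call needed an adjusted p (Benjamini-Hochberg) under 0.05 together with a change of 1 or more on the log2 scale. For each of these 154 genes, the 3 DSE libraries lay outside the range of the 3 BMI libraries. Among all genes tested, the DSE libraries lay above all BMI libraries for 1.72% and below them for 26.2%. Those with the largest fold changes included FIBCD1, INMT and a transcribed region in the class I genes of the swine major histocompatibility complex (MHC), which were higher in DSE, and DEFB115, C16orf89, PPP2R2C, PTGR2 and GPX6, which were lower. The excess of lower calls depended on the scale, since the median of all genes lay at -0.42 on the log2 scale, so a gene at the middle of the distribution was already lower in DSE. On values divided by median-of-ratios size factors, which brought that median to 0.03, 68 of the same genes (0.54%) were higher and 55 (0.437%) lower in DSE. Of the genes called on TPM, 32 of 34 higher and 54 of 120 lower ones were also called on that scale. The filter bore on these counts, since 14 of the 34 higher genes reached 1 TPM in no BMI library and 27 of the 120 lower genes in no DSE library. Such genes entered the test through 1 breed alone and had to differ to be tested. Without the filter, FIBCD1 was the 1 gene called higher and none was called lower by limma among 27741 genes. In bulk tissue, fewer cells of a type and less RNA per cell cannot be told apart.

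**Figure D1:**
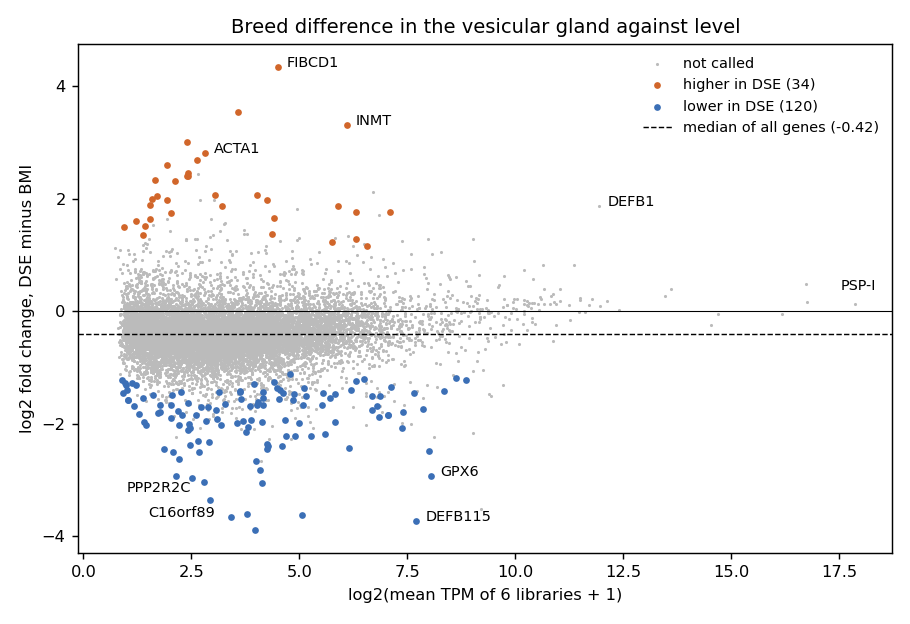
Log2 fold change between the breeds (DSE minus BMI, vertical axis) against log2(mean TPM of 6 libraries + 1) for each of the 12585 genes tested. Orange points are the 34 genes higher and blue points the 120 genes lower in DSE, and the dashed line is the median of all genes at -0.42.

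Spermadhesin transcripts marked all 6 libraries as vesicular gland, and 1 library of another gland stood apart. The spermadhesin locus on chromosome 14 took 55.4%, 43.7% and 56.3% of the TPM in BMI replicates 1 to 3 and 60.8%, 54.6% and 58.5% in DSE. The locus is counted here without the spermadhesin gene PSP-II, whose annotated span runs past it. In 23 of the 24 libraries of the other glands it took at most 0.628%, but it took 38.5% in BMI prostate replicate 2. PSP-I alone stood at 169569 TPM there, against at most 9.2 TPM in the other prostate libraries, so the main counts that use the prostate are given with and without that library. Within the vesicular gland, BMI replicate 2 and DSE replicate 1 lay at opposite ends of the first principal component, which held 61.2% of the variance. When both were left out, FIBCD1 was the 1 gene still called higher and no gene was called lower. The depth of the libraries cannot be read from TPM.

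**Figure D2:**
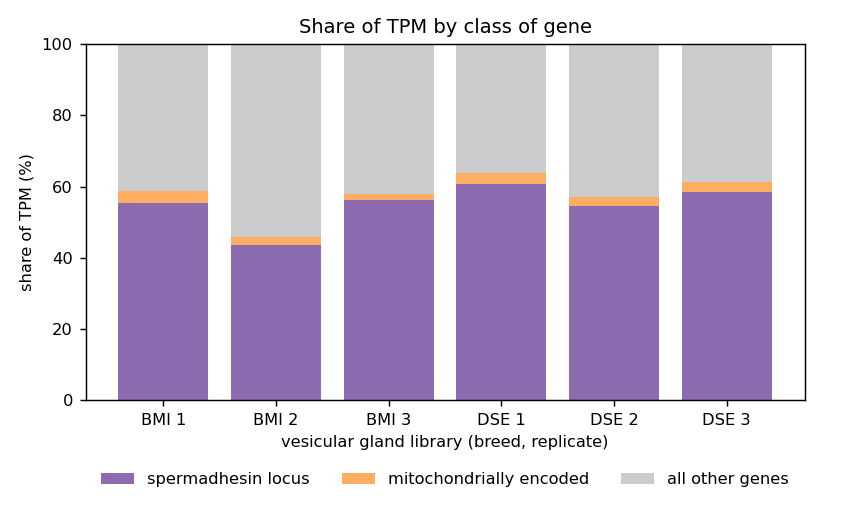
Share of TPM (vertical axis, %) in each of the 6 vesicular gland libraries taken by the spermadhesin locus, by the mitochondrially encoded genes and by all other genes. The spermadhesin locus took 43.7% in BMI replicate 2, the lowest share, and 60.8% in DSE replicate 1, the highest. PSP-II, whose annotated span runs past the locus, is counted with all other genes.

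The major secretory products did not pass the test between the breeds. The 10 most abundant genes of a library took 63.2%, 49.9% and 64.2% of the TPM in BMI and 67.6%, 62.5% and 65.6% in DSE. The means were 59.1% ± 7.98 and 65.2% ± 2.61 (SD, n = 3 each), and an exact two-sided permutation test gave p = 0.3, where the smallest p that 3 against 3 libraries allow is 0.1. PSP-I, the most abundant gene, which with PSP-II encodes the chief seminal plasma spermadhesins of the boar, stood at 216153, 216856 and 261003 TPM in BMI and 261758, 247155 and 244878 TPM in DSE (log2 fold change 0.12, adjusted p = 0.857). The ranges of both breeds overlapped. SPMI, a spermadhesin named as a sperm motility inhibitor of seminal plasma, was at 90929, 76073 and 108507 TPM in BMI and 144264, 107730 and 129714 TPM in DSE, with the DSE mean above the BMI mean but a log2 fold change of 0.48 that did not pass (adjusted p = 0.45). AWN was at 96681, 56644 and 77258 TPM in BMI and 74222, 69878 and 72223 TPM in DSE and PSP-II at 23550, 21122 and 32263 TPM in BMI and 16050, 25567 and 23271 TPM in DSE, with the breeds overlapping for both. A joined locus that runs from ENSSSCG00000021947, which covers the RefSeq gene AQN-1, into PSP-II was at 138748, 77957 and 103572 TPM in BMI and 113706, 111393 and 123685 TPM in DSE. The spans of the genes in this locus overlap each other and RefSeq sets their borders elsewhere, so the split of reads among them is uncertain. The share of the locus given above leaves out PSP-II, so a different split of reads with PSP-II would change that share.

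The other genes among the 10 most abundant did not pass either. BSP1, a seminal plasma protein that binds phospholipids of the sperm membrane, was at 29662, 22513 and 28782 TPM in BMI and 28039, 25214 and 24199 TPM in DSE (adjusted p = 0.912). ENSSSCG00000029257, a locus on chromosome 2 that overlaps several genes of the SPINK protease inhibitor family, was at 10508, 10611 and 11156 TPM in BMI and 13694, 16627 and 12429 TPM in DSE, and ENSSSCG00000021947 at 10617, 8510 and 11835 TPM in BMI and 13947, 9349 and 14140 TPM in DSE. The mitochondrially encoded COX3 and ATP6, which serve respiration, were at 7817, 4519 and 4086 TPM in BMI and 5536, 4999 and 5419 TPM in DSE and at 6977, 3338 and 2764 TPM in BMI and 5095, 3990 and 4588 TPM in DSE, respectively. Of these, only ENSSSCG00000029257 had every DSE library above every BMI library, and its log2 fold change was 0.40 (adjusted p = 0.397).

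FIBCD1, which encodes a membrane receptor that binds acetylated carbohydrates such as chitin, showed the largest difference. It stood at 0.774, 1.2 and 1.49 TPM in BMI and 41.9, 44.7 and 39.8 TPM in DSE, so it was close to 1 TPM in all BMI libraries and at a similar, higher level in all DSE libraries. The log2 fold change was 4.34 ± 0.29 (SE), adjusted p = 2.18e-05, and of the 46 called genes that the naming rule picked it was the 1 gene that kept its call under all 19 alternatives run. The gene lies at chr1:270918246-270956765, - strand of Sscrofa11.1. INMT, an N-methyltransferase of indoleamines, stood at 20.6, 7.86 and 7.59 TPM in BMI and 67.8, 142 and 159 TPM in DSE (log2 fold change 3.30 ± 0.40 (SE), adjusted p = 0.00241). Its lowest DSE library was above its highest BMI library by a wide margin.

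To show the sequence at the start of the genes that differed most, the reference sequence is printed from 250 bases before to 50 bases after the start of the most abundant vesicular gland transcript of the 3 genes with a symbol and the largest difference in each direction. They were read from RefSeq's copy of Sscrofa11.1, 5′ to 3′ on the strand of the gene, at chr1:270956716-270957015 (- strand) for FIBCD1, chr18:42213085-42213384 (+ strand) for INMT, chr14:60412652-60412951 (+ strand) for ACTA1, chr17:35028832-35029131 (+ strand) for DEFB115, chr3:37346282-37346581 (+ strand) for C16orf89 and chr8:4277646-4277945 (+ strand) for PPP2R2C. Capitals mark matches on either strand to 4 short motifs, none of which is contained in another. The first was the box TATAAA at which transcription machinery assembles. The next was CCAAT, which nuclear factor Y is known to bind. The third was GGGCGG, to which Sp proteins bind. The last was AGAACA, an element that androgen and other steroid receptors recognise.
FIBCD1: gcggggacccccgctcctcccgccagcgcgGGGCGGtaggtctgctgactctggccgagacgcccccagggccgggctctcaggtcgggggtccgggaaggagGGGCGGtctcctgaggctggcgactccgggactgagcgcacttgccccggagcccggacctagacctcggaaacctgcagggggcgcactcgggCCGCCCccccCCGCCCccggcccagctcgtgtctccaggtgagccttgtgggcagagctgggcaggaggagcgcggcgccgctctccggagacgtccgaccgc
INMT: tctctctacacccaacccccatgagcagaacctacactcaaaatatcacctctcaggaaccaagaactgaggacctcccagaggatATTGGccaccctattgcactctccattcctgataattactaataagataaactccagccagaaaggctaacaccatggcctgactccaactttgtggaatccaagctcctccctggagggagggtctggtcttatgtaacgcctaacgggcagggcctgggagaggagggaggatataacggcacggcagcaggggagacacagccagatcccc
ACTA1: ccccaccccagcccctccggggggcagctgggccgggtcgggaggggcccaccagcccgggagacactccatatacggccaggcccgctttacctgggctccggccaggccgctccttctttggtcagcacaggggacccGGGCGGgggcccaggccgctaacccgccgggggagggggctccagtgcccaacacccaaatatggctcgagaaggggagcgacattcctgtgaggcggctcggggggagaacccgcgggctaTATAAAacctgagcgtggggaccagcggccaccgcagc
DEFB115: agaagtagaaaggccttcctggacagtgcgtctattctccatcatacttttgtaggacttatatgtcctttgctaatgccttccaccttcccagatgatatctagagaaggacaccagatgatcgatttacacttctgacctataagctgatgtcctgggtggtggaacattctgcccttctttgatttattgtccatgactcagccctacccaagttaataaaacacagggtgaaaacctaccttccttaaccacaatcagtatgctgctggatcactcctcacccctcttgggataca
C16orf89: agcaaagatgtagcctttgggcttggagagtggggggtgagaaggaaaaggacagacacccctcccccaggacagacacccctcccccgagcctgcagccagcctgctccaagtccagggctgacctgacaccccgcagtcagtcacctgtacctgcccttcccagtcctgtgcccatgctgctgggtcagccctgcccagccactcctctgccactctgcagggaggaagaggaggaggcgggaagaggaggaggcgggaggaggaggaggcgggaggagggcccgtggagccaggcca
PPP2R2C: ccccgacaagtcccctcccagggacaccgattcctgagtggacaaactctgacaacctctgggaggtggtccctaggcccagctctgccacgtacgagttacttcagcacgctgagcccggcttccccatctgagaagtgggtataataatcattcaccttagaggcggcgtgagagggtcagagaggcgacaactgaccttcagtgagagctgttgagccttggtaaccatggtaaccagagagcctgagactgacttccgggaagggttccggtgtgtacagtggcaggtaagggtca
FIBCD1 held 4 matches to GGGCGG in this window. ACTA1 held 1 match to that motif, and 1 more to TATAAA just past the start. INMT held 1 match to CCAAT on the reverse strand. The 3 genes lower in DSE held none of the 4 motifs. Among 12347 tested genes with such a window, 67.9% held GGGCGG at least once. The share was 35.2% for CCAAT on either strand. It was 9.94% for AGAACA and 6.79% of windows in the case of TATAAA. The share of G and C was 76.0% for FIBCD1 and 44.3% for DEFB115, beside a median of 64.0% over all windows. These are the bases of the reference pig and not of BMI or DSE, and the start of a transcript is as the annotation gives it.

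A proton pump subunit and a zinc importer were among the genes higher in DSE. Of the ion, water and zinc transport list, 2 of 52 tested genes were higher (0.27% of all genes) and none lower, with a median log2 fold change of -0.34 beside -0.42 for all genes. ATP6V0D2, a subunit of the proton pump of vacuoles, stood at 0, 0.0589 and 0.0848 TPM in BMI and 3.7, 4.52 and 8.78 TPM in DSE (log2 fold change 2.60 ± 0.32 (SE), adjusted p = 0.00264). SLC39A5, a zinc importer, stood at 0.512, 0.297 and 0.511 TPM in BMI and 4.35, 6.52 and 8.11 TPM in DSE (log2 fold change 2.32 ± 0.31 (SE), adjusted p = 0.00344). Both were below 1 TPM in every BMI library, passed the filter through the DSE libraries alone and lost their calls without it. The most abundant members of that list, AQP2, a water channel, and SLC30A2, a zinc exporter, did not pass, at 1992, 649 and 413 TPM in BMI and 183, 257 and 532 TPM in DSE and at 519.8, 468 and 420.4 TPM in BMI and 283, 465 and 312 TPM in DSE, respectively. Without DSE replicate 3 AQP2 was called lower, with a log2 fold change of -1.90.

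NWD2, whose product has a NACHT domain and WD repeats, stood at 0.178, 0.636 and 1.25 TPM in BMI and 8.64, 8.6 and 6.81 TPM in DSE (log2 fold change 2.46 ± 0.33 (SE), adjusted p = 0.00344). A locus antisense to NWD2 over the same span was also higher in DSE, with means of 0.687 TPM in BMI and 8.11 TPM in DSE, and since strand-aware counting is not stated in the sources used here, reads of the pair cannot be told apart. CTNNA3, an alpha-catenin of cell junctions, stood at 0.0206, 0.162 and 0.0974 TPM in BMI and 2.97, 1.57 and 7.12 TPM in DSE (adjusted p = 0.0246). LRRC7, a scaffold protein of synapses, was at 0.121, 0.104 and 0.111 TPM in BMI and 1.33, 2.26 and 4.09 TPM in DSE, and GRIK4, a kainate receptor subunit, at 0.588, 0.611 and 0.219 TPM in BMI and 1.96, 3.35 and 2.95 TPM in DSE. ANO3, a member of the anoctamin family, was at 0.513, 0.49 and 0.129 TPM in BMI and 2.15, 5.14 and 2.98 TPM in DSE, and MUC15, a membrane mucin inside the span of ANO3 on the other strand, at 14.5, 10.6 and 7.46 TPM in BMI and 26.6, 29.7 and 29.9 TPM in DSE. FAM174B was at 5.63, 10.5 and 4.2 TPM in BMI and 17.6, 42.8 and 28.4 TPM in DSE. For CTNNA3, LRRC7, GRIK4 and ANO3 no BMI library reached 1 TPM, so they were tested through the DSE libraries alone, and each lost its call without the filter or without any 1 of the BMI libraries. MUC15 lost its call without BMI replicate 2 or 3 or DSE replicate 1 or 3, and FAM174B without BMI replicate 1 or 3.

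ACTA1, the actin of skeletal muscle, stood at 0, 2.06 and 0.255 TPM in BMI and 4.35, 12.1 and 17.6 TPM in DSE (log2 fold change 2.80 ± 0.50 (SE), adjusted p = 0.0193). It lost its call without BMI replicate 1 or 3. It was the 1 tested gene of 12 skeletal muscle markers, and the others together ran from 1.08 to 1.46 TPM in BMI and from 0.0848 to 1.36 TPM in DSE. The smooth muscle markers, of which 14 were tested, gave no call, and their sum ran from 727 to 5521 TPM in BMI and from 1484 to 2977 TPM in DSE. ACTA2, the smooth muscle actin, was at 149, 1049 and 546 TPM in BMI and 404, 565 and 212 TPM in DSE and TAGLN at 237, 1447 and 789 TPM in BMI and 723, 801 and 393 TPM in DSE. Without both libraries numbered 1, ACTA2 was called lower (log2 fold change -1.13, adjusted p = 0.0153 by limma). The BMI libraries spanned a wider range than the DSE libraries for both genes and enclosed it. The part of muscle tissue in the difference of ACTA1 was not tested.

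**Figure D3:**
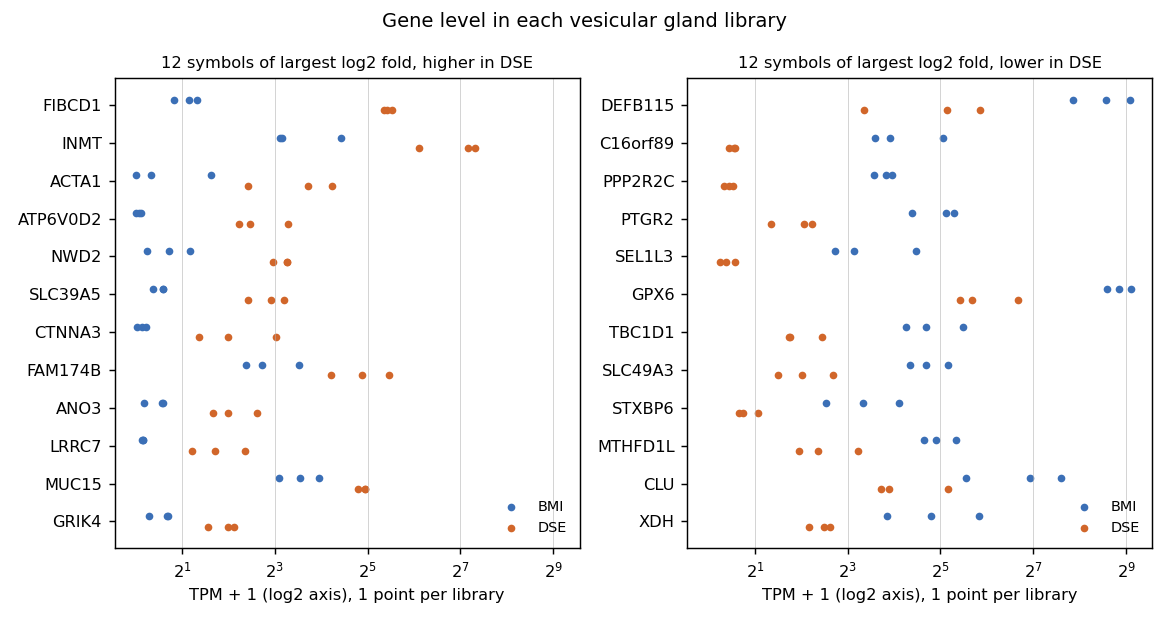
TPM + 1 on a log2 axis in each library (1 point per library, BMI blue, DSE orange) for the 12 genes with a symbol and the largest log2 fold change in each direction. In every row the 3 DSE points lie outside the range of the 3 BMI points, from FIBCD1 (0.774 to 1.49 TPM in BMI, 39.8 to 44.7 TPM in DSE) to GRIK4 and from DEFB115 to XDH.

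Of the genes lower in DSE, DEFB115, a beta-defensin of the male tract, had the largest log2 fold change of those with a symbol. It stood at 229.9, 543 and 381 TPM in BMI and 9.14, 34.5 and 56.3 TPM in DSE (log2 fold change -3.73 ± 0.51 (SE), adjusted p = 0.00374). It lost its call with robust variance moderation, in the fit of 30 libraries, with Ensembl transcripts only and without the filter. C16orf89 was at 32.3, 14.1 and 10.9 TPM in BMI and 0.478, 0.467 and 0.353 TPM in DSE (adjusted p = 0.00107) and PPP2R2C, a regulatory subunit of protein phosphatase 2A, at 10.9, 13.2 and 14.6 TPM in BMI and 0.258, 0.451 and 0.354 TPM in DSE (adjusted p = 3.55e-04). Both were below 0.5 TPM in all DSE libraries and above 10 TPM in all BMI libraries. They passed the filter through the BMI libraries alone, so they had to differ to be tested, and they lost their calls without it. PTGR2, a reductase of prostaglandins, was at 19.8, 38.2 and 33.9 TPM in BMI and 1.53, 3.67 and 3.17 TPM in DSE (log2 fold change -3.06 ± 0.35 (SE), adjusted p = 0.00171). SEL1L3 was at 21.3, 5.65 and 7.78 TPM in BMI and 0.188, 0.489 and 0.301 TPM in DSE and SLC49A3, a membrane transporter, at 34.9, 24.6 and 19.3 TPM in BMI and 1.84, 3.04 and 5.45 TPM in DSE. SEL1L3 also passed the filter through BMI alone and lost its call without it. TBC1D1, which regulates the traffic of glucose transporters through Rab proteins, was at 44, 24.8 and 18.2 TPM in BMI and 2.39, 4.47 and 2.33 TPM in DSE (log2 fold change -2.83 ± 0.36 (SE), adjusted p = 0.00279). STXBP6, a syntaxin binding protein, was at 9, 16.2 and 4.79 TPM in BMI and 0.574, 1.1 and 0.669 TPM in DSE, and MTHFD1L, a mitochondrial enzyme of folate metabolism, at 24.2, 39.4 and 29.1 TPM in BMI and 4.11, 8.36 and 2.86 TPM in DSE. In all of them the groups did not overlap.

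Antioxidant and detoxification enzymes held the most calls of any list. Of 58 tested, none was higher and 6 were lower in DSE (0.954% of all genes), and the list median of -0.47 lay close to that of all genes at -0.42. For 25 of the 58 the DSE libraries lay below all BMI libraries, beside 26.2% of all genes. GPX6, a glutathione peroxidase, stood at 461, 553 and 384 TPM in BMI and 42.1, 101 and 50.2 TPM in DSE (log2 fold change -2.93 ± 0.31 (SE), adjusted p = 0.00107). GPX5, its epididymal relative, was at 12.7, 9.71 and 13.6 TPM in BMI and 2.01, 3.95 and 2.74 TPM in DSE (log2 fold change -1.75 ± 0.32 (SE), adjusted p = 0.021). GPX5 lies inside the span of GPX6 on the other strand. XDH, xanthine dehydrogenase, was at 55.9, 13.5 and 27 TPM in BMI and 4.66, 3.49 and 5.14 TPM in DSE, and ALDH1A1, which oxidises retinal, at 274, 307 and 200.1 TPM in BMI and 52.6, 101 and 73.9 TPM in DSE (adjusted p = 0.00863). ALDH2 was at 90.1, 145 and 84.7 TPM in BMI and 33.9, 50.9 and 32.3 TPM in DSE and MT3, a metallothionein that binds zinc and copper, at 4.71, 3.44 and 4.4 TPM in BMI and 0.27, 0.863 and 0.335 TPM in DSE. On the size factor scale GPX6, ALDH1A1 and MT3 kept their calls and the other 3 did not. GPX6, ALDH1A1 and MT3 lost their calls in the fit of 30 libraries, with Ensembl transcripts only and without the filter. MT3 was below 1 TPM in every DSE library and so was tested through BMI alone. With 1 library left out, the calls of GPX5 (without BMI replicate 1 or 3), XDH (BMI replicate 3) and ALDH2 (BMI replicate 2 or 3 or DSE replicate 1 or 3) were lost. The most abundant members did not pass, with PRDX5, a peroxiredoxin, at 398, 477 and 469.8 TPM in BMI and 639.6, 732 and 736 TPM in DSE and PRDX1 at 234, 274 and 272 TPM in BMI and 321, 282 and 289.9 TPM in DSE. Both had DSE libraries above the BMI range.

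Polyol metabolism, by which the vesicular gland of many mammals makes fructose for semen, had 2 of 20 tested genes lower (0.954% of all genes) and none higher, with a median of -0.38. AKR1B1, the aldose reductase that reduces glucose to sorbitol, stood at 766, 680.4 and 523 TPM in BMI and 265, 279.8 and 282 TPM in DSE (log2 fold change -1.23 ± 0.23 (SE), adjusted p = 0.0246). SLC5A1, a sodium and glucose cotransporter, was at 10.01, 4.3 and 5.54 TPM in BMI and 0.523, 0.995 and 1.67 TPM in DSE (adjusted p = 0.0277). Neither was called with size factors, where the log2 fold changes were -0.69 and -1.51. AKR1B1 also lost its call without BMI replicate 1 or 2 or DSE replicate 1 or 3, and SLC5A1 without BMI replicate 1 or 3 or DSE replicate 1. Apart from AKR1B1, the list summed to 943 to 1193 TPM in BMI libraries and 841 to 961 TPM in DSE libraries, which overlapped. AKR1B1 is annotated over a span that holds several other genes.

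Protease inhibitors and proteases had 3 of 36 tested genes lower (0.954% of all genes) and none higher, with a median of -0.60. WFDC2 and SLPI, secreted inhibitors with WAP domains, stood at 39, 49.3 and 30.0 TPM in BMI and 4.42, 13.6 and 4.42 TPM in DSE and at 8.65, 11.3 and 3.37 TPM in BMI and 0.891, 1.1 and 0.603 TPM in DSE (log2 fold changes -2.39 and -2.12, adjusted p = 0.01 and 0.0217). CTSZ, the lysosomal cathepsin Z, was at 51.5, 54.1 and 40.2 TPM in BMI and 11.7, 22 and 23.1 TPM in DSE (adjusted p = 0.0443). SLPI lost its call without BMI replicate 1 or 2, and CTSZ with size factors (adjusted p = 0.126), without the 10 most abundant genes and without any 1 BMI library or DSE replicate 1. All 3, WFDC2 among them, lost their calls in the fit of 30 libraries, with Ensembl transcripts only and without the filter. ENSSSCG00000040753, which has no symbol in the files' annotation and covers the RefSeq gene WFDC10AL of the same family, had the largest log2 fold change of all lower genes. It stood at 53.5, 3.52 and 29.7 TPM in BMI and 0.262, 0.371 and 0.353 TPM in DSE (log2 fold change -3.89 ± 0.68 (SE), adjusted p = 0.0175). Its BMI libraries varied widely, and all DSE libraries were below 0.4 TPM, so it was tested through BMI alone. It was not called with size factors (adjusted p = 0.101), with robust variance moderation or among genes with a mean of at least 10 TPM. Its call was also lost in the fit of 30 libraries, with Ensembl transcripts only and without the filter. SLPI, WFDC2 and ENSSSCG00000040753 lie within 1 Mb on chromosome 17.

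Of the spermadhesins and other seminal plasma proteins, 1 of 16 tested genes was lower (0.954% of all genes) and none higher. This was CLU, the secreted chaperone clusterin, at 192, 120.2 and 45.9 TPM in BMI and 12.2, 34.7 and 13.7 TPM in DSE (log2 fold change -2.43 ± 0.48 (SE), adjusted p = 0.029). It lost its call with size factors (adjusted p = 0.124), without the 10 most abundant genes, with no variance trend, with robust moderation, and without DSE replicate 1 or BMI replicate 1 or 2. Complement, acute phase and innate defence genes had 2 of 30 lower, CLU again and DUOX2, an oxidase that makes hydrogen peroxide at mucosal surfaces, which stood at 11, 7.32 and 4.79 TPM in BMI and 0.382, 0.88 and 2.42 TPM in DSE (adjusted p = 0.0297). DUOX2 lost its call with size factors (adjusted p = 0.0966) and without any 1 BMI library or DSE replicate 1. The list median was -1.13 on TPM and -0.80 with size factors. In the other direction DEFB1, a beta-defensin of epithelia and the most abundant member, stood at 1043, 3774 and 1059 TPM in BMI and 4896, 6681 and 6094 TPM in DSE. All DSE libraries were above all BMI libraries, but the adjusted p was 0.0596 and BMI replicate 2 lay well above the other BMI libraries. With size factors DEFB1 was called higher, and without BMI replicate 2 its log2 fold change was 2.47 (adjusted p = 5.22e-04). It was also called without DSE replicate 2 (1.76) or 3 (1.83). LTF, lactoferrin, was at 316, 285 and 290.3 TPM in BMI and 60.3, 185 and 118 TPM in DSE (adjusted p = 0.0649), and it was called lower without DSE replicate 2 (log2 fold change -1.80) or 3 (-1.48).

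No gene for protein export passed the test on TPM, while the median of that list lay above that of all genes. Of 65 tested genes for entry, folding and export in the secretory path, none was called, 8 had DSE libraries above the BMI range (1.72% of all genes) and none below it (26.2%). The median log2 fold change was 0.07 beside -0.42 for all genes, and 0.61 beside 0.03 with size factors, where 1 gene was called higher. That gene was SEC11C, a subunit of the signal peptidase, at 109, 145 and 123 TPM in BMI and 223, 278 and 265 TPM in DSE (adjusted p = 0.0511 on TPM), and it is named here after its values were seen. SSR4, a subunit of the translocon, was at 1337, 735 and 689.8 TPM in BMI and 1476, 1330 and 1552 TPM in DSE and P4HB, a protein disulfide isomerase, at 619, 707 and 672 TPM in BMI and 896, 939.8 and 905 TPM in DSE. Of the unfolded protein response list, 1 of 23 was higher (0.27% of all genes). DERL3, which takes part in the removal of misfolded proteins, stood at 32, 31.2 and 29.8 TPM in BMI and 67.7, 74.4 and 81 TPM in DSE (log2 fold change 1.23 ± 0.23 (SE), adjusted p = 0.0225), and lost its call without BMI replicate 2 or 3 or DSE replicate 3, or with no variance trend. XBP1, the transcription factor of that response, was at 243, 298 and 182 TPM in BMI and 142, 227 and 216 TPM in DSE. Cholesterol and fatty acid synthesis had no call among 42 genes and a median of 0.07.

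Of 63 tested genes of glycosylation, 1 was higher (0.27% of all genes) and 1 lower (0.954%), with a median of -0.34 on TPM and 0.16 with size factors, beside -0.42 and 0.03 for all genes. GCNT1, which makes the core 2 branch of O-linked sugar chains, stood at 63.5, 52.7 and 54.5 TPM in BMI and 109, 115 and 168 TPM in DSE (log2 fold change 1.16 ± 0.25 (SE), adjusted p = 0.0399). A4GALT, which adds galactose to glycolipids, was at 25, 29.9 and 21.9 TPM in BMI and 7.13, 13.2 and 3.84 TPM in DSE (log2 fold change -1.68 ± 0.37 (SE), adjusted p = 0.0461). Both calls lay near the threshold, and each was lost without any 1 of 5 of the 6 libraries. With size factors GCNT1 was still called and A4GALT was not (adjusted p = 0.163). BIRC5, survivin, was the 1 of 13 tested cell cycle genes that was called lower (0.954% of all genes), at 13.3, 13.7 and 13.8 TPM in BMI and 3.68, 2.96 and 4.47 TPM in DSE (adjusted p = 0.0183), and it lost its call with size factors and without BMI replicate 1 or 3.

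Of 15 tested fibroblast and matrix markers, 4 were lower in DSE (0.954% of all genes), all of them collagen genes. None was higher, and the median of the list was -1.30 on TPM and -0.86 with size factors. COL1A1 stood at 294, 332 and 172 TPM in BMI and 45.9, 96.2 and 47.8 TPM in DSE (log2 fold change -2.09 ± 0.33 (SE), adjusted p = 0.00922). COL3A1 was at 188, 274 and 157 TPM in BMI and 33.7, 86.3 and 56.9 TPM in DSE (adjusted p = 0.0195), COL1A2 at 136, 216 and 120.0 TPM in BMI and 29.9, 77 and 37.3 TPM in DSE and COL6A1 at 125, 224 and 108 TPM in BMI and 52.6, 60.9 and 39.5 TPM in DSE. These genes encode chains of the collagens that fibroblasts lay down, and 1 of the 4, COL3A1, was also called with size factors on the same genes, while with size factors and a filter of their own COL1A1 was called too. FBLN1, a matrix protein, did not pass, at 138, 486 and 178 TPM in BMI and 61.5, 203 and 68 TPM in DSE, but was called lower without DSE replicate 2 (log2 fold change -1.81, adjusted p = 0.014 by limma). COL1A2 lost its call without BMI replicate 2 or 3 or DSE replicate 1, COL3A1 without BMI replicate 2, and COL6A1 without BMI replicate 2 or DSE replicate 1. The list summed to between 1004 and 2099 TPM in BMI and between 327 and 778 TPM in DSE, and did not overlap with size factors either. Of 8 tested basal cell markers none was called, but for 7 the DSE libraries lay below the BMI range (26.2% of all genes), with a median of -0.999 on TPM and -0.52 with size factors, and a summed level of 88.9 to 147 TPM in BMI and 53.4 to 62.9 TPM in DSE that overlapped with size factors. Of these, KRT5, a keratin of basal cells, was at 60.1, 29.7 and 32.8 TPM in BMI and 27.9, 24.7 and 22 TPM in DSE and DST, which anchors keratin to the membrane, at 23.9, 31.1 and 17.9 TPM in BMI and 7.31, 13 and 7.45 TPM in DSE, and DST was called lower without DSE replicate 2 (log2 fold change -1.56). The general epithelial markers, 16 tested with no call, summed to 2492 to 2801 TPM in BMI and 1832 to 2051 TPM in DSE, with KRT8 at 376, 416 and 411 TPM in BMI and 296, 364 and 279 TPM in DSE. The median of that list was -0.46 on TPM, beside -0.42 for all genes, and 0.07 with size factors, where the sums overlapped. The part of tissue composition in the differences of other genes was not tested.

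The other immune and stress lists gave no calls. The macrophage markers, 10 tested, summed to 112 to 206 TPM in BMI and 30.6 to 133 TPM in DSE, with C1QA at 36.1, 52 and 24.8 TPM in BMI and 4.3, 31.8 and 13.9 TPM in DSE and C1QB at 47.4, 58.1 and 31.4 TPM in BMI and 4.77, 30.1 and 15.2 TPM in DSE. Without DSE replicate 2 both were called lower, with log2 fold changes of -2.06 and -2.22. The MHC and antigen presentation list had no call among 22 genes, and its most abundant members B2M and CD74 were at 996, 734 and 460.0 TPM in BMI and 313, 476 and 351 TPM in DSE and at 279.7, 287 and 153 TPM in BMI and 143, 166 and 105 TPM in DSE. Interferon-stimulated genes had no call among 40, and IFI6 was at 877, 77.4 and 69.7 TPM in BMI and 56.1, 49.9 and 24.4 TPM in DSE, high in 1 BMI library. Immediate early and heat shock genes had no call among 40. FOS was at 144, 1783 and 586 TPM in BMI and 53.8, 496 and 60.9 TPM in DSE and DUSP1 at 444, 1863 and 770.0 TPM in BMI and 194, 664 and 215 TPM in DSE, and the sum of the list reached 11491 TPM in BMI replicate 2, beside 1803 to 4592 TPM in the other 5 libraries. Without DSE replicate 2, FOS (-3.20) and DUSP1 (-2.07) were called lower. The steroid metabolism list (33 tested) and the gland epithelium transcription factors (47 tested) had no call, with GATA2 at 271, 506 and 415 TPM in BMI and 143, 314 and 179 TPM in DSE. GATA2 was called lower without DSE replicate 2 (-1.26), and IFI6 without both libraries numbered 1 (-1.05). The remaining marker lists, for endothelium, nerve, fat, T and B cells, neutrophils and mast cells, red blood cells, sperm and the other accessory glands, had no call either. The 13 mitochondrially encoded genes had no call, with a median of 0.53 on TPM and 1.07 with size factors (-0.42 and 0.03 for all genes) and the DSE libraries above the BMI range for 5 (1.72% of all genes).

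**Figure D4:**
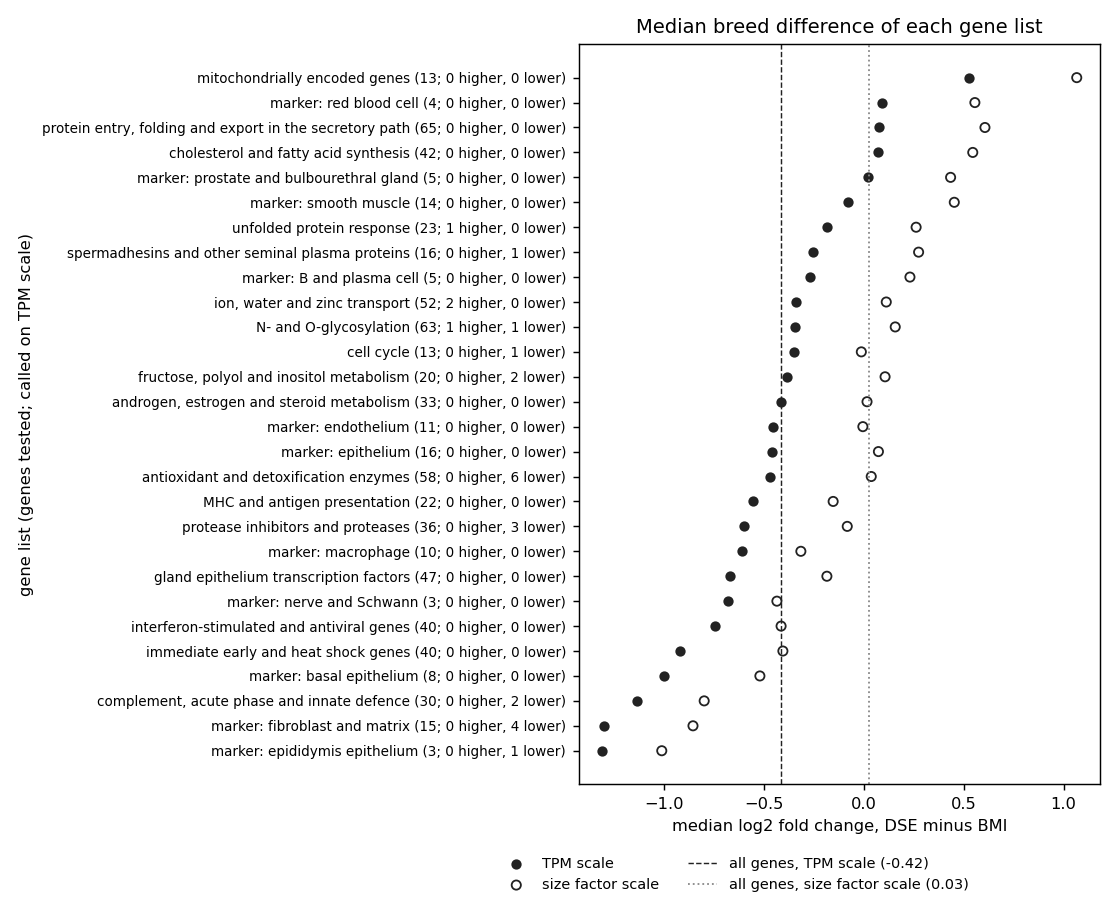
Median log2 fold change (DSE minus BMI, horizontal axis) of each gene list with at least 3 tested genes, on TPM (filled) and with size factors (open), with the number of genes tested and called. The lists of the secretory path and of cholesterol synthesis lie at 0.07 on TPM, to the right of all genes at -0.42, and the fibroblast list lies at -1.30.

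The levels of genes abundant in the epididymis were also compared. Among the 20 tested genes of highest level in epididymis that were at least 20 times their vesicular gland level there, a set chosen after the values were seen, 5 were lower in DSE vesicular gland (0.954% of all genes) and none higher, and for 9 the DSE libraries lay below the BMI range (26.2%) and for 2 above it (1.72%), the latter being novelGene_751 and ENSSSCG00000038107. The median log2 fold change of the 20 was -0.95 on TPM and -0.52 with size factors. The 5 lower genes were ENSSSCG00000040753, CLU, GPX5, SPINK14 and ENSSSCG00000053158. The level of the 20 genes together was 1628, 929 and 1392 TPM in BMI vesicular gland and 827, 617 and 1001 TPM in DSE. For comparison, ENSSSCG00000040753 stood at a mean of 34215 TPM in BMI and 13650 TPM in DSE epididymis. Of 23 epididymal markers, 3 were tested. The most abundant, EDDM3B, was at 169.9, 139 and 186 TPM in BMI and 121, 156 and 163 TPM in DSE, overlapping between the breeds (log2 fold change -0.17 on TPM and 0.37 with size factors, adjusted p = 0.614 on TPM). GPX5 was lower, LCN8 was at 4.35, 2.11 and 3.22 TPM in BMI and 0.492, 0.427 and 1.17 TPM in DSE without a call (adjusted p = 0.0682), and 2 of the 23 were listed at 0 in all 6 libraries. The part of epididymal RNA in these differences was not tested. GPX6 had means of 5.78 TPM in BMI and 132 TPM in DSE epididymis, where the higher mean was that of DSE.

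Genes without a symbol and joined loci were also called. The locus with the largest fold change among the higher ones of this kind was ENSSSCG00000062469_ENSSSCG00000001229 (chr7:22869147-22942727, + strand), a transcribed region over the RefSeq class I genes SLA-1 to SLA-3. It stood at 0.232, 2.17 and 0.784 TPM in BMI and 21.2, 21.9 and 20.1 TPM in DSE (log2 fold change 3.53 ± 0.36 (SE), adjusted p = 0.00107). Another joined locus in the same region, ENSSSCG00000062469_ENSSSCG00000052432, was lower, with means of 357 TPM in BMI and 111 TPM in DSE. Class I genes are near-identical in parts and differ between haplotypes, so reads may be split among copies and both values are uncertain. ENSSSCG00000035964, which covers the RefSeq gene OBP2B of the odorant-binding lipocalins, stood at 0.257, 0 and 0 TPM in BMI and 5.86, 5.13 and 14.4 TPM in DSE (log2 fold change 3.003 ± 0.37 (SE), adjusted p = 0.00264). It passed the filter through DSE alone and lost its call without the filter. ENSSSCG00000037567, opposite to the heat shock gene HSPB1, stood at 39.5, 23.2 and 120.0 TPM in BMI and 1.2, 6.51 and 2.82 TPM in DSE (log2 fold change -3.62 ± 0.54 (SE), adjusted p = 0.00719), and reads of that pair cannot be told apart without strand. It was not called with size factors (adjusted p = 0.0621), with robust variance moderation, in the fit of 30 libraries, with Ensembl transcripts only or without the filter. Of the 154 called loci, 97 had a symbol, 5 were joined, 7 were antisense and 12 were outside annotated genes.

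Of the 154 called genes, 48 lay within 1 Mb of another called gene, in 21 runs of up to 4. On chromosome 8, 4 of 418 tested genes were higher and 9 lower (3.11% called, beside 1.22% of all genes), among them NWD2 and TBC1D1, whose spans lie within 1 Mb of each other with opposite directions. On chromosome 17, 9 of 398 were lower and none higher (2.26%). Neighbouring pairs, which are named here after their values were seen, were DEFB115 with SOX12 on chromosome 17, MT3 with MT1X on chromosome 6, HOXB3 with HOXB8 on chromosome 12 and ANG with RNASE4 on chromosome 7. The last pair overlaps in the annotation, as do CLU and SCARA3, so their calls are not independent.

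The differences were also followed in the other tissues, in 1 fit of all 30 libraries that kept the vesicular gland call itself for 21 of the 34 higher and 39 of the 120 lower genes (21 and 59 without BMI prostate replicate 2). In that fit 28 of the 34 higher and 111 of the 120 lower genes had no call of the same direction in testis, epididymis, prostate or bulbourethral gland. Without BMI prostate replicate 2, the numbers with no call elsewhere were 28 and 109. By direction alone, and among genes with a mean of at least 1 TPM in the tissue, 16 of 21 higher genes (76.2%) were also higher in DSE epididymis, beside 47.9% of all genes, and 76 lower genes (71.0%) were also lower, beside 52.1%. In bulbourethral gland the shares were 15 of 19 (78.9%, beside 48.1%) and 69 of 91 (75.8%, beside 51.9%). In testis they were 11 of 21 (52.4%, beside 50.5%) and 37 of 86 (43.0%, beside 49.5%). In prostate without BMI replicate 2 they were 14 of 18 (77.8%, beside 76.9%) and 42 of 86 (48.8%, beside 23.1%). With that library they were 16 of 19 (84.2%, beside 82.6%) and 70 of 103 (68.0%, beside 17.4%). In bulbourethral gland 2 of the 120 lower genes, GREB1L and APOE, were called higher in DSE (log2 fold changes 2.94 and 1.92), and they are named here after their values were seen. Called in the same direction in all 4 other tissues, with and without BMI prostate replicate 2, were 3 higher loci, among them the one over SLA-1 to SLA-3, and 1 lower locus. That locus over SLA-1 to SLA-3 had means of 0.842 and 32.8 TPM in BMI and DSE testis and of 6.97 and 106.8 TPM in epididymis. Of all genes tested in vesicular gland, 0.699% were higher and 0.652% lower in DSE testis, 0.127% and 0.167% in epididymis, 0.366% and 0.0795% in prostate (0.31% and 0.0715% without BMI prostate replicate 2), and 0.0874% and 0.0715% in bulbourethral gland. A missing call does not show that a tissue did not differ, so the difference itself was tested.

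The breed difference in vesicular gland minus the mean of the 4 other tissues passed for 38 of 19796 genes (0.192%), 17 in the higher (0.0859%) and 21 in the lower direction (0.106%). The genes named below were chosen for their difference in vesicular gland, which this contrast contains. FIBCD1 had the largest such difference among the named genes (4.42 ± 0.23, adjusted p = 7.70e-12), and its means in the other tissues were at most 0.503 TPM in either breed. ENSSSCG00000035964 (2.97 ± 0.22, adjusted p = 1.07e-08) was not above 0.0828 TPM in mean in any other tissue. SLC39A5, ATP6V0D2, NWD2, CTNNA3 and GRIK4 also passed in the higher direction, with differences between 1.34 and 2.55. FIBCD1, SLC39A5 and ENSSSCG00000035964 reached 1 TPM in 2, 0 and 0 libraries outside DSE vesicular gland, fewer than the 3 that the filter asks for, so these genes entered the fit through that group and had to differ. TBC1D1 (-2.72 ± 0.29, adjusted p = 8.66e-06) and PTGR2 (-2.79 ± 0.38, adjusted p = 3.17e-04) passed in the lower direction. TBC1D1 had means of 139 and 133 TPM in BMI and DSE testis, 31.1 and 34.9 TPM in epididymis, 47.4 and 55.1 TPM in bulbourethral gland and 18.1 and 10.4 TPM in prostate, where it was lower in DSE as well but without a call (adjusted p = 0.243). INMT did not pass (2.27 ± 0.70, adjusted p = 0.255), and its DSE mean was above its BMI mean in all 5 tissues.

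When BMI prostate replicate 2 was left out, 65 genes passed, 17 in the higher and 48 in the lower direction, and the 38 were all among them. GPX6, DEFB115 and MTHFD1L then passed, with differences of -4.03, -3.38 and -2.43 (adjusted p = 0.00606, 0.00114 and 0.0102). In that library DEFB115 stood at 127 TPM and GPX6 at 175 TPM, and in every other prostate library both were at or below 0.235 TPM.

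**Figure D5:**
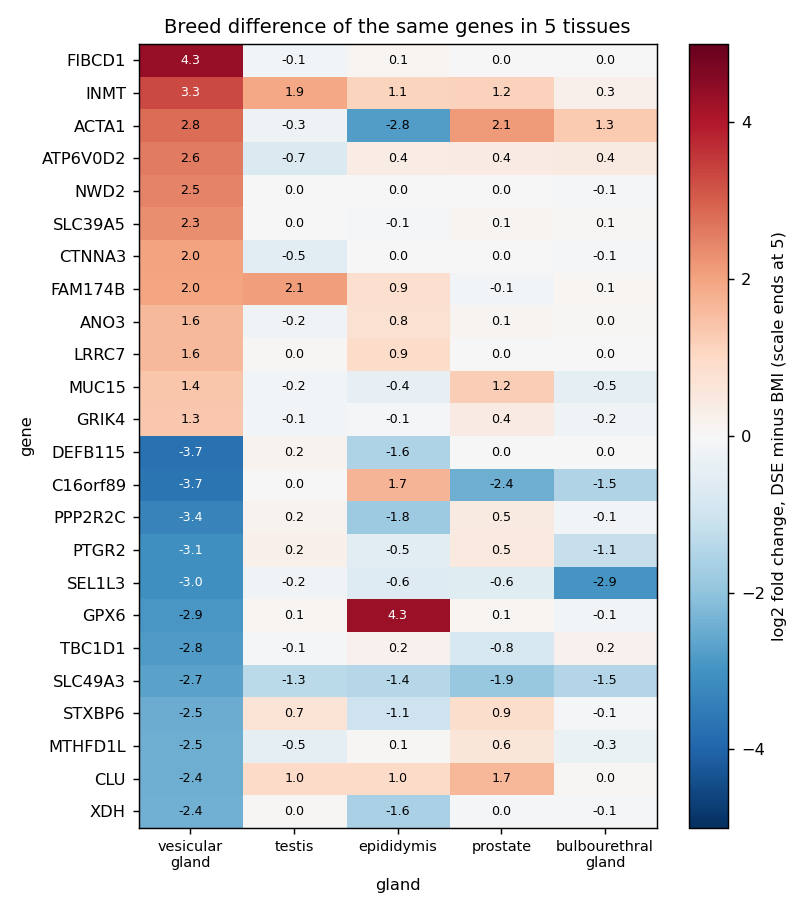
Log2 fold change between the breeds (DSE minus BMI, colour and printed value) in 5 tissues for the 12 genes with a symbol and the largest difference in vesicular gland in each direction, with the prostate column fitted without BMI prostate replicate 2. FIBCD1, at 4.34 in vesicular gland, lies near 0 in the other 4 tissues, while SLC49A3 lies below 0 in all 5.

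Full-length reads from long-read sequencing (Iso-seq) of the vesicular gland gave a separate measure, with 1 library per breed and no replicate check. The reads assigned to transcripts in the deposited table, a part of each library, numbered 293781 in BMI and 318115 in DSE. Of the genes with at least 5 reads in both libraries together, the share of reads was higher in DSE for 18 of 18 genes called higher by RNA-seq and lower in DSE for 66 of 73 genes called lower, while 43.4% of all 8300 such genes were higher in DSE. FIBCD1 had 0 reads in BMI (exact 95% Poisson interval 0 to 3.69) and 14 in DSE (7.65 to 23.5). ANO3 had 2 (0.242 to 7.22) and 37 (26.1 to 51.0), and GCNT1 had 173 (148 to 201) and 747 (694 to 803). PTGR2 had 33 reads in BMI (22.7 to 46.3) and 0 in DSE (0 to 3.69), and SEL1L3 had 25 (16.2 to 36.9) and 0. TBC1D1 had 32 (21.9 to 45.2) and 6 (2.20 to 13.1). For several genes of large fold change the reads were too few to tell, with intervals that overlapped. In BMI and DSE, INMT had 0 and 5 reads, DEFB115 6 and 0, GPX6 3 and 0, C16orf89 1 and 0 and PPP2R2C 1 and 0. These intervals cover counting error only. AKR1B1 had 271 reads in BMI (239.7 to 305) and 291 in DSE (258 to 326), or 922 and 915 per 1000000 assigned reads, with intervals that overlapped, and the locus over SLA-1 to SLA-3 had 2 and 0.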

How the data were processed

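Total RNA of 5 reproductive tissues was sequenced as paired-end RNA-seq, long-read Iso-seq and small RNA-seq. Per the labels ribosomal RNA was depleted, whereas the methods describe selection with poly-T beads, and strand is not given in the sources used here. The authors trimmed the reads, aligned them with STAR 2.7.10a to Sscrofa11.1 with a merged annotation that includes their own Iso-seq transcripts, and quantified them with Salmon 1.9.0, and the deposited values are TPM per transcript. The authors also deposited counts of full-length Iso-seq reads per transcript, with 1 library per breed and tissue. The small RNA file was not used here.

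TPM of 133722 transcripts were summed to 35552 genes by the gene identifier of the deposited annotation. Genes with at least 1 TPM in at least 3 of the 6 vesicular gland libraries were tested on log2(TPM + 1) with limma 3.58.1 in R 4.3.3, with a variance trend and no block. P-values were two-sided and adjusted by the Benjamini-Hochberg method over all genes tested, at a threshold of 0.05 with a log2 fold change of at least 1. Fold changes on this scale understate the change of genes of low level. TPM add to the same total in each library and keep no depth, and no counting interval was computed from the read totals that the study gives. The difference between tissues was tested in 1 limma fit of all 30 RNA-seq libraries. Symbols were taken from gene names for 10513 of 11769 tested Ensembl genes. Sequences were read from RefSeq's Sscrofa11.1. The limma fits were tested on simulated data.

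Genes with a symbol were named if they were among the 12 called genes of largest log2 fold change in each direction, called members of the 33 gene lists, the 10 genes of highest mean TPM, or the 2 members of highest mean TPM of a list, and the called loci without a symbol of largest fold change were added. The text gives a part of the uncalled ones. The comparison, the lists and this rule were chosen with earlier results of these data known. Alternatives were another pseudocount, 2 other scalings, other filters on low values, other variance models, a replicate block, Ensembl transcripts only and libraries left out. Leaving out BMI replicate 2 with DSE replicate 1, and leaving out BMI prostate replicate 2, were chosen after seeing the data.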

Additional observations from a re-analysis of the deposited data

Results flagged for a closer look

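In 38 genes the breed difference in vesicular gland differed from the mean of the breed differences in the other 4 tissues, by an interaction term in the fit of all 30 libraries (adjusted p below 0.05 by limma and a difference of at least 1 on the log2 scale). The named genes with a positive difference were FIBCD1 (4.42), ENSSSCG00000035964 (2.97), NWD2 (2.55), ATP6V0D2 (2.47), SLC39A5 (2.30), CTNNA3 (2.16) and GRIK4 (1.34). Of these, FIBCD1, SLC39A5 and ENSSSCG00000035964 passed the filter on low values through the DSE vesicular gland libraries, so they had to differ. Those with a negative difference were PTGR2 (-2.79) and TBC1D1 (-2.72). No named gene passed with opposite calls in vesicular gland and in this contrast. The contrast contains the vesicular gland difference for which the genes listed here were chosen, so equal signs are no separate result. BMI prostate replicate 2, in which the spermadhesin locus without PSP-II took 38.5% of the TPM, entered this fit as a prostate library. Without that library 65 genes passed.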

How the results depend on the processing

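The counts of 34 higher and 120 lower genes moved with the scale and the filter. They were 84 and 58 with size factors and a filter of their own, 66 and 102 without the 10 most abundant genes in the total, 1 and 0 without a filter on low values (27741 genes tested), 7 and 13 among genes with a mean of at least 10 TPM, 34 and 63 in 1 fit of all 30 libraries, 43 and 183 with robust variance moderation, and 8 and 7 with Ensembl transcripts only. Leaving out 1 library at a time gave 15 to 35 higher and 37 to 448 lower genes. Both libraries numbered 1 left out gave 72 and 361, and leaving out BMI replicate 2 and DSE replicate 1 gave 1 and 0. Apart from the replicate block, given next, other counts stayed within 1.5 times. The 38 genes that differed between tissues became 90 with size factors and 65 without BMI prostate replicate 2. Of 46 named called genes, 23 kept their call in each fit with 1 library left out in which they were tested (15 were tested in all 6), and none reversed its sign. Of 62 named genes without a call, 13 were called under at least 1 alternative, namely ACTA2, AQP2, C1QA, C1QB, DEFB1, DST, DUSP1, FBLN1, FOS, GATA2, IFI6, IGHM and LTF.

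With the replicate number as a block, 68 genes were higher (0.54%) and 610 lower (4.85%), and 46 of the 46 named called genes kept their call, while C1QB, DEFB1, DST, DUSP1, FBLN1, FOS, IGHM and LTF were called as well. Same-numbered libraries deviated together with r = 0.0951, 0.3001 and 0.0231, beside -0.203 to 0.122 for libraries of different number. BMI replicates 1 and 2 correlated best with the DSE library of their number. BMI replicate 3 correlated best with DSE replicate 1 (0.122), so the numbers were not taken as pairs.

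Signs of genes that did not pass changed under some alternatives, and the cause was not tested. With size factors, the log2 fold change was 0.17 for KRT8, 0.48 for AWN, 0.48 for BSP1, 0.27 for ACTA2, 0.45 for TAGLN, 0.10 for SLC30A2, 0.23 for XBP1 and 0.29 for PSP-II. Without the 10 most abundant genes it was 0.13 for TAGLN. With libraries left out, it ran from -0.28 (without BMI replicate 2 and DSE replicate 1) to 0.12 (without BMI replicate 1) for AWN, from -0.24 to 0.0176 for BSP1 under the same settings, and from -0.49 (without BMI replicate 3) to 0.0726 (without BMI replicate 2 and DSE replicate 1) for XBP1. With 1 library left out, for ACTA2 it ran from -1.05 without BMI replicate 1 to 0.35 without BMI replicate 2, and for TAGLN from -0.81 to 0.49 likewise. From the setting without BMI replicate 3 to that without BMI replicate 1 it ran from -0.0896 to 0.58 for ATP6 and from -0.16 to 0.31 for COX3, and it was -0.0457 for ENSSSCG00000021947_ENSSSCG00000061335 without BMI replicate 2 and 0.37 without BMI replicate 1. Without both libraries numbered 1 it was 0.10 for AWN, -1.13 for ACTA2, -0.93 for TAGLN and 0.39 for ENSSSCG00000021947_ENSSSCG00000061335.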
